A study of Mus musculus with 13 samples.

Results

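The voltage-gated sodium and calcium channel genes and their auxiliary subunits were taken by name, as the rows of the count table whose symbol follows the Scn, Cacna1, Cacna2d, Cacnb or Cacng pattern of the sodium and calcium channel nomenclature. Described here are 36 rows, 33 of them among the 24490 rows of the table with at least 1 count, with 7 sodium channel α genes, 3 sodium channel β genes, 10 calcium channel α1 genes, 4 α2δ genes, 4 calcium channel β genes and 8 γ genes. The rule used no expression values. The row for the neuronal channel Nav1.2 carries the symbol Scn2a1, which lies outside the pattern and is described once as a neighbour. Scn10a was not analysed here.

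Voltage-gated sodium and calcium channels are the pore proteins that open when a neuron's membrane depolarises. Sodium channels carry the upstroke of the action potential, and calcium channels turn that electrical signal into calcium entry, which drives transmitter release, dendritic signalling and gene regulation. Each pore-forming α subunit is made from a separate gene and works with auxiliary subunits: β subunits for sodium channels, and intracellular β, extracellular α2δ and, in muscle, γ subunits for calcium channels. Several γ genes encode transmembrane AMPA receptor regulatory proteins (TARPs), which traffic and tune glutamate receptors in the brain rather than calcium channels.

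Expression was measured by polyA RNA sequencing of perfused brain hemispheres from 7 male wild-type C57BL/6 mice aged 12-16 weeks. The mice had either controlled cortical impact (CCI), in which a piston strikes the exposed cortex under anesthesia, or a sham procedure, and tissue was taken on day 4. There were 4 groups: ipsilateral hemispheres of CCI mice (animals 1, 2, 3 and 5), ipsilateral hemispheres of sham mice (animals 4 and 6), contralateral hemispheres of the same 4 CCI mice, and contralateral hemispheres of sham mice (animals 4, 6 and 8). No mutation, transgene or drug treatment is recorded for any group. A whole hemisphere mixes tissue near to and far from the impact, and every ipsilateral library is marked as right and every contralateral one as left, so that side of surgery and left or right cannot be told apart.

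The libraries held between 5604856 and 7955076 counts. Neuronal markers were abundant in every library: the 10 genes of a general neuron list summed to 6527 to 7138 CPM (counts scaled to library size) in CCI ipsilateral libraries, 8319 to 8874 CPM in sham ipsilateral libraries, 7880 to 8200 CPM in CCI contralateral libraries and 7914 to 8381 CPM in sham contralateral libraries. CCI ipsilateral libraries therefore held less neuronal marker RNA than any other library. Markers of monocytes and macrophages moved the other way, with summed levels of 298.3 to 512.7 CPM in CCI ipsilateral libraries and 8.09 to 8.61 CPM in sham ipsilateral libraries. All CPM values, these marker sums included, are adjusted for library composition by edgeR's TMM factors.

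Of the 36 channel genes, 28 passed the filter on low counts and were tested. Their levels spanned a wide range when expressed per transcript length as TPM, a scale that removes differences in transcript length and library size, averaged over all 13 libraries. Scn2b averaged 143.3 TPM, Scn4b 135.3, Cacnb3 134.1 and Cacng7 127.3 TPM. All 4 encode auxiliary subunits or, for Cacng7, a TARP, and all 4 stood above every pore-forming gene. Among pore genes the highest levels were 90.2 TPM for the Nav1.2 row Scn2a1, which is not counted among the 36, 82.3 TPM for Scn8a, 70.9 for Scn1a, 53.7 for Cacna1g and 52.9 for Cacna1a. The sodium channel genes Scn3a, Scn7a and Scn9a lay between 2.02 and 2.23 TPM.

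The 8 genes that were not tested comprise 5 with very few counts. Cacng6 had 2 to 7 counts per library, Cacna1f, the retinal L-type channel gene, had 0 to 8, and Scn11a, the sensory neuron channel Nav1.9, had 0 to 4. The skeletal muscle genes Cacng1 and Scn4a each had 0 to 2. Cacna1e, Cacnb2 and Cacna1s were listed at 0 in all 13 libraries. Cacna1e and Cacnb2 are known to be expressed in brain, and the sources used here do not say why they are listed at 0, so these zeros are not read as absent expression.

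Some of these genes lie near each other in the genome (GENCODE, GRCm38). Scn3a (chr2:65457118-65567627), Scn1a (chr2:66270778-66440840), Scn9a (chr2:66480080-66634962) and Scn7a (chr2:66673425-66784914) lie on the minus strand of chromosome 2. Scn2b (chr9:45117782-45130070) and Scn4b (chr9:45138395-45154152) lie close together on the plus strand of chromosome 9. Cacng1, Cacng4 and Cacng5 sit together on chromosome 11, and Cacng6, Cacng7 and Cacng8 on chromosome 7. Cacna1a lies at chr8:84388440-84640246 on the plus strand and Cacnb4 at chr2:52428320-52676831 on the minus strand, both apart from the other channel genes.

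**Figure D1:**
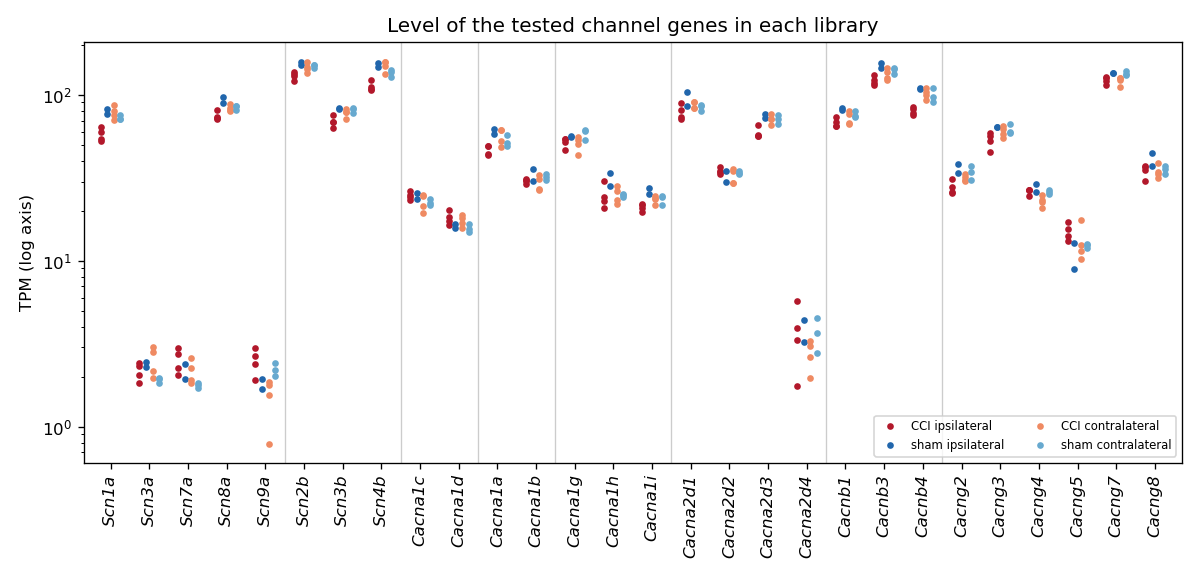
Level of each of the 28 tested channel genes in each of the 13 libraries, in TPM on a log axis; each point is 1 library, coloured by group, and grey lines separate the subunit families. Scn2b, Scn4b, Cacnb3 and Cacng7 lie highest with means of 127.3 to 143.3 TPM, and Scn3a, Scn7a, Scn9a and Cacna2d4 form a low group at means of 2.02 to 3.40 TPM.

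The comparison of CCI with sham ipsilateral hemispheres asks what impact does to the operated side. Here 16 of the 28 tested channel genes were lower and 0 were higher in the CCI hemispheres at an edgeR adjusted p under 0.05, that is 57.1% of them. Over all 14875 genes tested, 22.5% were called, 10.0% lower and 12.5% higher. The median log2 fold change was -0.30 over the channel genes and 0.004 over all genes, and 23 of the 28 values were below 0. Among the called genes the fitted levels were 1.15-fold to 1.46-fold lower. The calls covered all 3 sodium channel β genes described, all 3 tested calcium channel β genes, 2 of 5 sodium channel α genes, 1 of 2 Cav2 genes, 2 of 3 T-type genes, 2 of 4 α2δ genes, 3 of 6 γ genes and 0 of 2 L-type genes. In bulk tissue, fewer cells of a type and less RNA per cell cannot be told apart. The general neuron list fell beside the channels, with 7 of its 10 genes lower and a median of -0.28, and values relative to that list are given further on.

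The sodium channel pore genes Scn1a, Scn8a and Scn2a1 fell. Scn1a encodes Nav1.1, a channel prominent in fast-spiking inhibitory neurons, and had 87.2, 91.9, 74.6 and 77.5 CPM in the CCI ipsilateral libraries, against 111 and 123 CPM in the sham ipsilateral libraries. Its log2 fold change was -0.50 ± 0.08 SE (adjusted p = 3.4e-05, edgeR). Every CCI library lay below both sham libraries, a 1.41-fold lower fitted level. Scn8a encodes Nav1.6, the main channel of axon initial segments and nodes of Ranvier, and had 339, 375, 334 and 330.3 CPM in CCI libraries and 416 and 468 CPM in sham libraries. The groups did not overlap, and the log2 fold change was -0.36 ± 0.06 SE (adjusted p = 8.41e-05, edgeR). The Nav1.2 row, Scn2a1, gave -0.30 ± 0.07 SE (adjusted p = 0.00204, edgeR). Scn3a (Nav1.3, mainly embryonic), Scn7a (the sodium-sensing Nax) and Scn9a (Nav1.7, best known from sensory neurons) were not called, with log2 fold changes of -0.19, 0.15 and 0.37. The summed TPM of the 7 sodium α rows was 139.8 ± 9.32 in CCI ipsilateral libraries (SD, n = 4) and 179.1 ± 9.22 in sham ipsilateral libraries (SD, n = 2). Of that sum Scn8a made up 53.5% and Scn1a 41.2% in CCI ipsilateral libraries, against 52.2% and 44.1% in sham ipsilateral libraries.

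The 3 sodium channel β genes described here, whose products are single-pass membrane proteins that shape gating and act in cell adhesion, were all lower. Scn4b, whose product supports resurgent sodium current, showed the smallest p of all channel genes here, with 243, 266, 228 and 237 CPM in CCI libraries and 344 and 333 CPM in sham libraries. No CCI library came near the sham values, and the log2 fold change was -0.47 ± 0.07 SE (adjusted p = 8.86e-06, edgeR). Scn3b had 120.1, 128, 116 and 108 CPM in CCI libraries and 149 and 149 CPM in sham libraries, a log2 fold change of -0.33 ± 0.07 SE (adjusted p = 0.000458, edgeR). Scn2b, which like Scn4b is disulfide-linked to the pore protein, had 279, 267, 253 and 245 CPM in CCI libraries and 322 and 316 CPM in sham libraries, with -0.29 ± 0.06 SE (adjusted p = 0.00103, edgeR). Both genes showed separate groups. Of the summed TPM of these 3 genes, Scn4b made up 36.0% ± 1.11 in CCI ipsilateral libraries (SD, n = 4) and 39.0% ± 0.318 in sham ipsilateral libraries (SD, n = 2).

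Of the calcium channel pore genes, Cacna1a, Cacna1h and Cacna1i were called, all lower in CCI libraries. Cacna1a encodes the P/Q-type channel Cav2.1, the main calcium source for transmitter release at many central synapses, and had 111, 124, 108 and 121 CPM in CCI libraries against 162 and 163 CPM in sham libraries. The groups were far apart, with a log2 fold change of -0.48 ± 0.07 SE (adjusted p = 1.1e-05, edgeR). Cacna1b, the N-type channel that shares this presynaptic role, had 88.5, 92.8, 82.8 and 83.8 CPM in CCI libraries and 96.4 and 96.3 CPM in sham libraries. All CCI values were lower, but the difference was small and not called (log2 -0.15 ± 0.07 SE, adjusted p = 0.131, edgeR). Whether Cacna1a and Cacna1b differed from each other in response was not tested.

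The 3 T-type genes encode low-voltage-activated channels that support burst firing. Cacna1i (Cav3.3) had 90.3, 94.1, 90.7 and 85.2 CPM in CCI libraries and 121 and 114 CPM in sham libraries, without overlap, and a log2 fold change of -0.38 ± 0.07 SE (adjusted p = 0.000174, edgeR). Cacna1h (Cav3.2) had 58.1, 67.0, 66.0 and 63.8 CPM in CCI libraries and 75.3 and 82.9 CPM in sham libraries, also without overlap, and was lower with a log2 fold change of -0.31 ± 0.09 SE (adjusted p = 0.00895, edgeR); without sham ipsilateral animal 6 the value was -0.24 and the edgeR adjusted p 0.203. Cacna1g (Cav3.1), the most abundant of the 3 per length, had 91.9, 107, 110.0 and 107 CPM in CCI libraries and 126 and 110.4 CPM in sham libraries and was not called (log2 -0.18 ± 0.08 SE, adjusted p = 0.0792, edgeR). The 2 tested L-type genes, whose channels couple depolarisation to gene regulation, were not called either: Cacna1c (Cav1.2) gave -0.12 ± 0.08 SE (adjusted p = 0.292, edgeR), and Cacna1d (Cav1.3) gave 0.09 ± 0.08 SE (adjusted p = 0.497, edgeR).

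Calcium channel β subunits bind the pore protein from inside the cell and bring it to the membrane. Cacnb4, the gene disrupted in the ataxic and epileptic lethargic mouse, had 231, 278, 249.5 and 246 CPM in CCI libraries against 348 and 383 CPM in sham libraries. With -0.54 ± 0.08 SE (adjusted p = 1.04e-05, edgeR), it had the lowest log2 fold change of the 28 genes, a 1.46-fold lower level. Cacnb3 had 155, 162, 139 and 147 CPM in CCI libraries and 197 and 187 CPM in sham libraries (log2 -0.35 ± 0.07 SE, adjusted p = 0.000378, edgeR). Cacnb1, known first from skeletal muscle but also expressed in brain, had 89.9, 102, 91.0 and 91.8 CPM in CCI libraries and 121 and 119 CPM in sham libraries (log2 -0.36 ± 0.07 SE, adjusted p = 0.000419, edgeR). None of the 3 genes overlapped between groups. Their summed TPM was 270.1 ± 13.3 in CCI ipsilateral libraries (SD, n = 4) and 342.2 ± 8.13 in sham ipsilateral libraries (SD, n = 2).

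The α2δ subunits are extracellular proteins that raise channel density at the synapse, and α2δ-1 and α2δ-2 bind gabapentin. Cacna2d3 had 93.8, 107, 89.2 and 91.4 CPM in CCI libraries and 120.4 and 130.0 CPM in sham libraries, without overlap (log2 -0.39 ± 0.08 SE, adjusted p = 0.000308, edgeR). Cacna2d1 had 222, 270.3, 239.5 and 228 CPM in CCI libraries and 264 and 330.0 CPM in sham libraries (log2 -0.31 ± 0.08 SE, adjusted p = 0.00457, edgeR). Its groups overlapped, since CCI animal 2 lay above sham animal 4, and without sham animal 6 the log2 fold change was -0.14 with an edgeR adjusted p of 0.382. Cacna2d2 had 78.5, 85.1, 78.7 and 77.7 CPM in CCI libraries and 82.8 and 69.0 CPM in sham libraries, mixed in order and not called (log2 0.08 ± 0.08 SE, adjusted p = 0.545, edgeR). Cacna2d4, at a mean of 3.40 TPM, gave -0.28 ± 0.24 SE (adjusted p = 0.45, edgeR).

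Of the γ family, the TARP gene Cacng2, which encodes stargazin, had 68.1, 74.6, 61.2 and 62.5 CPM in CCI libraries and 94.4 and 85.3 CPM in sham libraries, without overlap (log2 -0.43 ± 0.09 SE, adjusted p = 0.000379, edgeR). Cacng3, another TARP gene of the forebrain, was lower, with a log2 fold change of -0.31 ± 0.09 SE (adjusted p = 0.0141, edgeR); the call was lost without sham ipsilateral animal 4 (adjusted p 0.067) or animal 6 (0.14). Cacng7, a TARP of the second type, was lower at -0.20 ± 0.07 SE (adjusted p = 0.0326, edgeR), but its value was 0.09 relative to the neuron list. The edgeR adjusted p for Cacng7 was between 0.0549 and 0.2 when CCI ipsilateral animals 3 or 5, sham ipsilateral animals 4 or 6, or CCI contralateral animal 2 were left out in turn. Cacng8, a TARP abundant in hippocampus, had 18.6, 22.5, 21.6 and 21.4 CPM in CCI libraries and 27.6 and 23.6 CPM in sham libraries and was not called (log2 -0.27 ± 0.12 SE, adjusted p = 0.0911, edgeR). Cacng4 gave -0.15 ± 0.09 SE (adjusted p = 0.264, edgeR). Cacng5, also a TARP of the second type, had 21.6, 22.7, 27.4 and 25.5 CPM in CCI libraries and 21.2 and 15.2 CPM in sham libraries: it was the 1 channel gene with every CCI library above both sham libraries, but was not called (log2 0.42 ± 0.17 SE, adjusted p = 0.0843, edgeR). Altogether 19 channel genes had every CCI ipsilateral library below both sham ipsilateral libraries and 1 had every one above, where 19.6% and 21.8% of all tested genes did so.

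**Figure D2:**
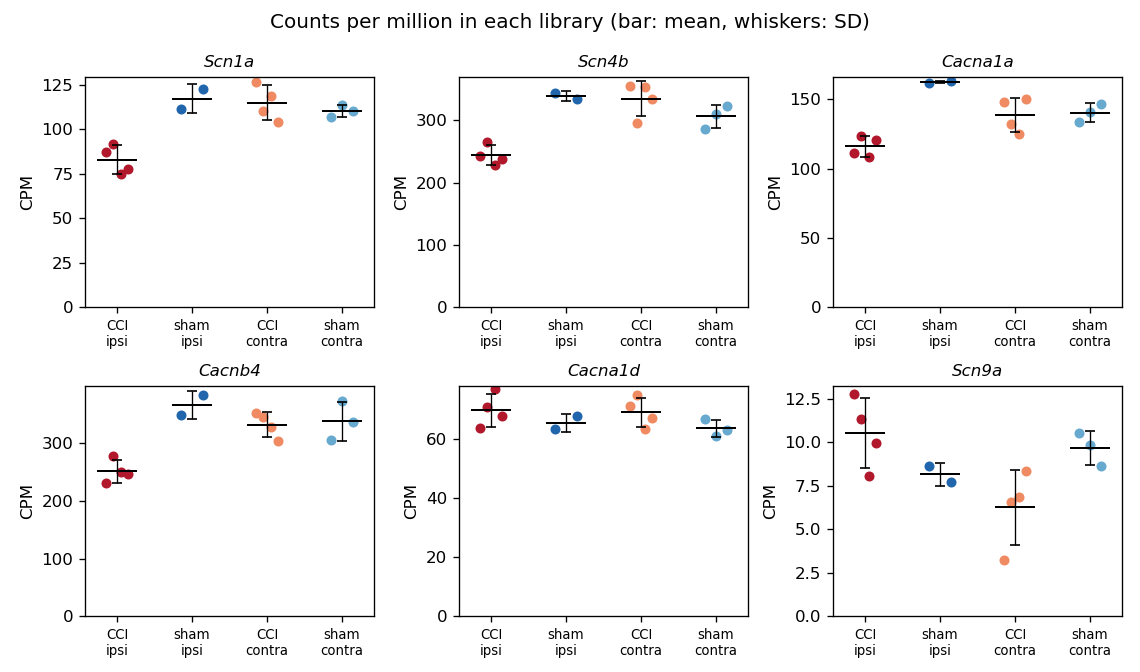
CPM of 6 channel genes in each library, with the mean (bar) and SD (whiskers) of CCI ipsilateral (n = 4), sham ipsilateral (n = 2), CCI contralateral (n = 4) and sham contralateral (n = 3) hemispheres. For Scn1a, Scn4b, Cacna1a and Cacnb4 every CCI ipsilateral library lies below every other library plotted, Cacna1d shows mixed groups, and for Scn9a the CCI contralateral libraries include the lowest value, 3.24 CPM.

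In the authors' deposited table, made with DESeq2, 9 channel genes were lower and 1 was higher in this comparison at an adjusted p under 0.05. An adjusted p was given there for 31 channel genes. The share of all genes called in that table is not given here, so these counts are not read as a result about channel genes. The 9 were all among the 16 called here. The higher one was Cacng5, with a log2 value of 0.48 and an adjusted p of 0.0234 in the authors' deposited table. The genes called by edgeR here and not in the authors' table were Cacna1h, Cacna1i, Cacna2d1, Cacnb1, Cacnb3, Cacng3 and Scn2b. DESeq2 run here on the same 13 libraries kept all of these calls. The authors' log2 estimates differed from those of edgeR in both directions, at -0.15 against -0.29 for Scn2b and -0.57 against -0.50 for Scn1a. In ipsilateral against contralateral hemispheres of CCI mice, which uses no sham library in the contrast, Scn2b gave -0.20 in both. There Scn1a gave -0.47, Scn4b -0.46 and Cacnb4 -0.40 in both as well. The cause of the difference in the comparison with sham libraries was not tested.

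The start regions of the called genes are shown because these genes fell together, and their base content differs widely. RefSeq promoter windows on GRCm38.p6 were available for 28 of the 36 genes and were read as the 250 bases before each start. The 4 shown are those of the lower genes with the smallest p in CCI against sham ipsilateral hemispheres whose window holds at most 30 bases of an annotated exon of the gene, which passed over Scn4b and Cacnb4. Cacna1a had no window in the table. Such exon bases were removed, 3 for Scn1a. Each is printed 5′ to 3′ on the gene's strand, with CG dinucleotides in capitals.
Scn1a, chr2:66440841-66441087, minus strand: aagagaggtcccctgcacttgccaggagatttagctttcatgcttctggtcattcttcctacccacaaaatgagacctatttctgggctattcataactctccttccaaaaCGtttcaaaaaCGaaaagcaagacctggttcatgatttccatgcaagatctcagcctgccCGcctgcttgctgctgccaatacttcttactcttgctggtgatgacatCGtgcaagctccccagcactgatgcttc
Scn8a, chr15:100870395-100870644, plus strand: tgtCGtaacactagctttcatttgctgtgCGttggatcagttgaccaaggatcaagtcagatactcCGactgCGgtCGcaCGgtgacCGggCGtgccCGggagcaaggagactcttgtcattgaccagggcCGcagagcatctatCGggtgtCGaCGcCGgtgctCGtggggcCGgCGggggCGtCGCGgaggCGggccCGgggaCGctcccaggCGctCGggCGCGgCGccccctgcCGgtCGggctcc
Cacna1i, chr15:80286988-80287237, plus strand: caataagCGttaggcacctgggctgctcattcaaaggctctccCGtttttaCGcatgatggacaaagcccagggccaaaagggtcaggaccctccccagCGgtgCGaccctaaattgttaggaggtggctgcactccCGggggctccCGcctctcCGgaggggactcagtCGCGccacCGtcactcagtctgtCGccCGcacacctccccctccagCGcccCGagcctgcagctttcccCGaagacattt
Cacna2d3, chr14:29721865-29722114, minus strand: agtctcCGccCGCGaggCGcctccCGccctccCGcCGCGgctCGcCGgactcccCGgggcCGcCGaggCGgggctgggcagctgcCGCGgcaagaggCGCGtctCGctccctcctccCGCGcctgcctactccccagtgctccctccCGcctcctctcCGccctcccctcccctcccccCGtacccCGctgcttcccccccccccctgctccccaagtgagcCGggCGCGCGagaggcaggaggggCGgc
Scn1a held 4 CG dinucleotides at 47.4% G and C, Scn8a held 30 at 68.0%, Cacna1i held 16 at 62.4% and Cacna2d3 held 30 at 80.0%. The median over all 32851 windows was 6 CG dinucleotides. Scn8a has 2 starts in the RefSeq table and the outermost of these is shown. Its window lies inside the GENCODE gene, which begins at chr15:100869858.

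Motifs were searched on both strands of the same 250-base windows. The GC box GGGCGG was in 32.7% of all windows, in 15 of the 38 windows of channel genes and in 6 of the 18 windows of the genes that fell. The E-box CAGCTG was in 13.0% of all windows, 11 of the 38 and 4 of the 18. The EGR-type motif GCGNGGGCG, which can overlap a GC box, was in 4.70% of all windows, 6 of the 38 and 2 of the 18. The cyclic AMP response element TGACGTCA was in 1.55% of all windows and in 0 of the 38, and the AP-1 motif TGANTCA was in 6.75% of all windows, 1 of the 38 and 0 of the 18. Several genes contribute more than 1 window, and a match says nothing on whether a factor binds there.

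Contralateral hemispheres of CCI mice were next set against contralateral hemispheres of sham mice. No channel gene was called (0 of 28 by edgeR, and 0 by DESeq2 and by limma on TPM), where 0.0941% of all tested genes were (0.0807% higher, 0.0134% lower). The median log2 fold change was -0.05 over the channel genes and -0.001 over all genes. Unadjusted p was under 0.05 for 4 channel genes, all lower: Scn9a at -0.64 ± 0.21 SE (adjusted p = 0.462, edgeR), Cacng7 at -0.18 ± 0.06 SE (adjusted p = 0.475, edgeR), Cacng4 at -0.21 ± 0.08 SE (adjusted p = 0.549, edgeR), and Cacna1g at -0.17 ± 0.07 SE (adjusted p = 0.587, edgeR). These 4 and Cacna1b had every CCI library below every sham library, 5 genes in all, and 0 had every one above, where 3.36% and 4.00% of all tested genes did so. Cacna1a, at 148, 132, 125 and 149.7 CPM in CCI contralateral libraries and 133, 141 and 147 CPM in sham contralateral libraries, gave -0.02 ± 0.07 SE (adjusted p = 0.987, edgeR), and Scn1a gave 0.06 ± 0.07 SE (adjusted p = 0.947, edgeR).

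Within the CCI mice, ipsilateral hemispheres were set against contralateral hemispheres of the same animals. This comparison shares the CCI ipsilateral libraries with the first one, and its main fit did not pair the hemispheres by animal. Lower on the injured side were 13 channel genes, and 1 was higher, so that 50% of the 28 were called, where 21.7% of all tested genes were (8.90% lower, 12.8% higher). Limma on log2(TPM + 1) called 5 in place of these 14: Scn4b, Scn1a, Cacnb4, Cacna2d3 and Cacna1a, all lower, and 15.9% of all tested genes (4.05% lower, 11.8% higher). The median log2 fold change was -0.15 over the channel genes and -0.004 over all genes. Every ipsilateral library lay below every contralateral one for 9 channel genes and above for 0, where 9.81% and 12.9% of all tested genes did so.

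The smallest p values belonged to Scn4b, Scn1a and Cacnb4. Scn4b had 355, 295, 353 and 335 CPM in CCI contralateral libraries, above all 4 ipsilateral values given earlier, for a log2 fold change of -0.46 ± 0.06 SE (adjusted p = 8.41e-07, edgeR). Scn1a had 127, 110.1, 118 and 104 CPM in CCI contralateral libraries, also without overlap (log2 -0.47 ± 0.07 SE, adjusted p = 4.34e-06, edgeR). For Cacnb4 the contralateral values were 352, 345, 328 and 303 CPM and the log2 fold change -0.40 ± 0.06 SE (adjusted p = 4e-05, edgeR). Cacna2d3 was lower at -0.32 ± 0.06 SE (adjusted p = 0.000357, edgeR), and Cacna1a at -0.25 ± 0.06 SE (adjusted p = 0.00248, edgeR). Relative to the neuron list Cacna2d3 lay at -0.097 (edgeR adjusted p 0.193) and Cacna1a at -0.031 (0.705), and neither was called. Scn3b and Scn2b were lower too, with log2 fold changes of -0.22 for Scn3b and -0.20 for Scn2b, though they lay at 0.007 and 0.023 relative to the neuron list. Scn8a was lower at -0.19, and lay at 0.035 relative to the neuron list.

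The calls of Cacna1i, Cacng2, Cacnb3, Cacna2d1 and Cacng3 depended on single libraries. Relative to the neuron list they lay, in that order, at 0.024, -0.012, 0.059, 0.04 and 0.012. Cacna1i (-0.20) lost its call without CCI ipsilateral animal 5 (edgeR adjusted p 0.0542). Cacng2 (-0.23) lost it without CCI ipsilateral animals 3 or 5 or CCI contralateral animal 1, at up to 0.0623. For Cacnb3 (-0.16) it went without CCI ipsilateral animals 3 or 5 or CCI contralateral animals 2 or 5, at up to 0.16. Cacna2d1 (-0.18) lost its call without any of 8 libraries: CCI ipsilateral 1, 3 or 5, CCI contralateral 1, 2 or 5, or sham contralateral 4 or 6, with adjusted p up to 0.148. Cacng3 (-0.21) lost it without CCI ipsilateral 3 or 5, either sham ipsilateral library, CCI contralateral 1, 2 or 5, or sham contralateral 4, with adjusted p up to 0.193. Leaving out CCI ipsilateral animal 5 lowered the number of calls to 9, against 14 with all libraries. The authors' deposited table called 4 channel genes in this comparison, all lower and all among those called here. The share of all genes called in that table is not given here.

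Scn9a ran the other way. It had 12.7, 11.3, 8.07 and 9.97 CPM in CCI ipsilateral libraries and 3.24, 6.57, 6.85 and 8.37 CPM in CCI contralateral libraries, a log2 fold change of 0.76 ± 0.19 SE (adjusted p = 0.00435, edgeR). The groups overlapped, since the ipsilateral library of animal 3 lay below the contralateral library of animal 5, but within each of the 4 animals the ipsilateral value was the higher one. These levels rest on 59 to 95 counts in CCI ipsilateral libraries and 22 to 51 counts in CCI contralateral libraries. Leaving out each library in turn kept the call, with an edgeR adjusted p of at most 0.021. Limma on log2(TPM + 1) did not call it (limma adjusted p 0.0596), nor did the authors' DESeq2 table (adjusted p 0.0549). In sham mice Scn9a had 8.61 and 7.70 CPM in ipsilateral libraries and 10.5, 9.87 and 8.62 CPM in contralateral libraries. Genes on the opposite strand, Gm13629 and Gm23046, overlap Scn9a, and 22 of the 36 channel genes have such an overlap. The library kit keeps strand, but no source states whether the authors' counting did. The list of sensory neuron markers stayed low, at 9.62 to 13.95 CPM summed in CCI ipsilateral libraries and 7.37 to 13.4 CPM in CCI contralateral libraries, and its part in the Scn9a result was not tested.

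**Figure D3:**
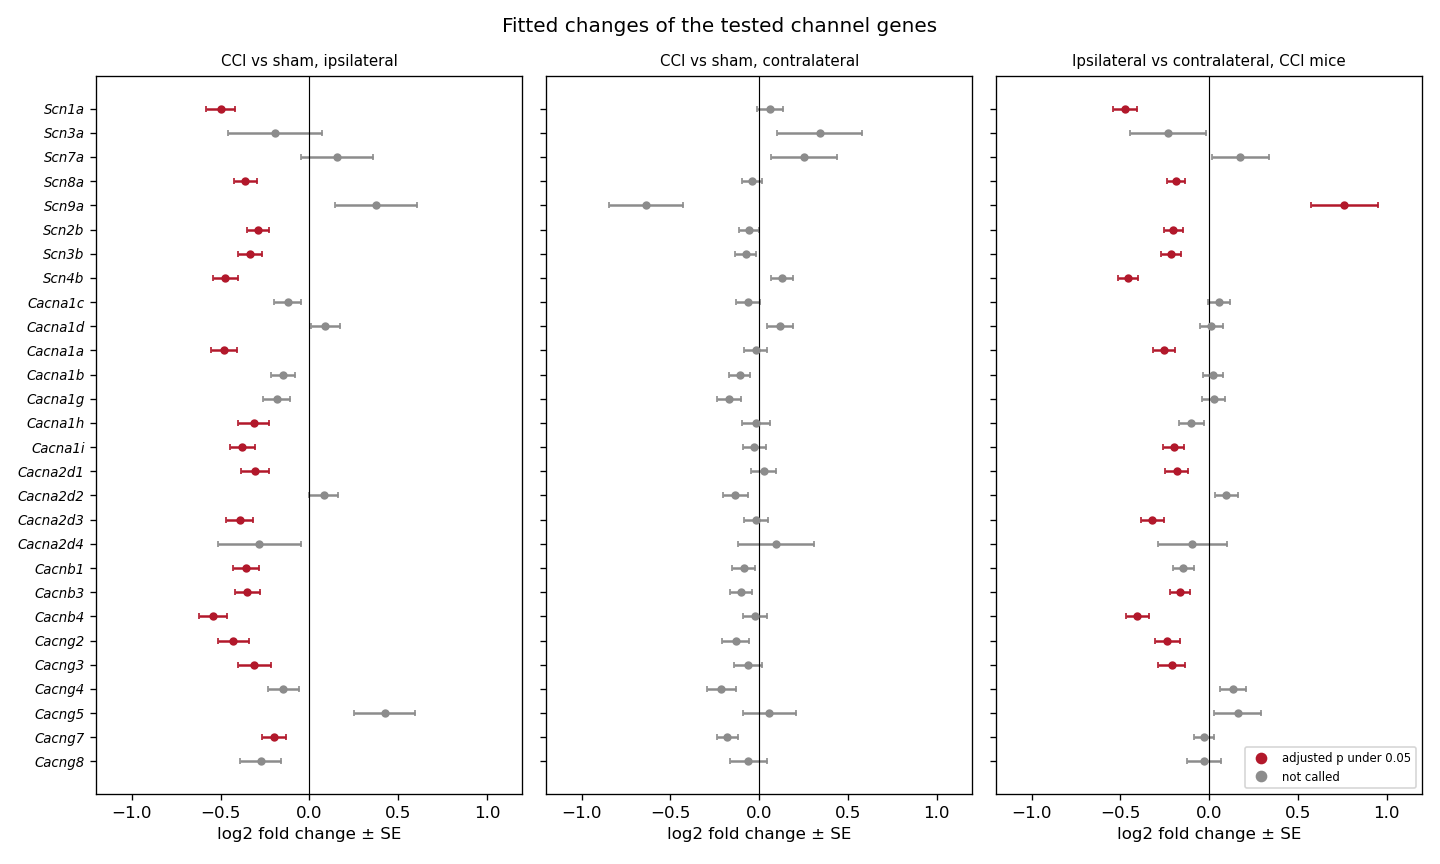
Fitted log2 fold change with its SE for the 28 tested channel genes in CCI over sham ipsilateral hemispheres, CCI over sham contralateral hemispheres, and ipsilateral over contralateral hemispheres of CCI mice; red marks an edgeR adjusted p under 0.05 over all genes. The first panel holds 16 red points, all below 0, the second none, and the third 13 below 0 and Scn9a at 0.76; relative to the neuron list, Cacng7 lies above 0 in the first panel and 7 of the red genes of the third turn to values above 0.

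In sham mice, ipsilateral hemispheres were set against contralateral ones to show what side and surgery without impact do. No channel gene was called (0 of 28 by edgeR, DESeq2 and limma on TPM), where 0.00672% of all tested genes were. Still, 24 of the 28 log2 fold changes were above 0, with a median of 0.09 against -0.004 over all genes, and 2 had an unadjusted p under 0.05. These were Cacna1a, at 0.21 ± 0.08 SE (adjusted p = 0.699, edgeR), and Cacna1h, at 0.19 ± 0.09 SE (adjusted p = 0.81, edgeR). Both sham ipsilateral libraries lay above all 3 sham contralateral ones for 10 channel genes and below for Scn9a alone, where 10.1% and 11.0% of all tested genes did so. The sham ipsilateral values are thus on the high side for most channel genes, and the CCI ipsilateral libraries are set against these same libraries in the first comparison. In CPM, Cacna1a had 162 and 163 in sham ipsilateral libraries and 133, 141 and 147 in sham contralateral libraries.

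The difference between these hemisphere effects, CCI minus sham, was tested directly as an interaction. It was called below 0 for 8 channel genes and above 0 for 1, which is 32.1% of the 28. Of all tested genes 7.83% were called (2.99% below 0, 4.84% above). By sign alone, called or not, it was below 0 for 24 of the 28 and above 0 for 4. Scn4b gave -0.60 ± 0.09 SE (adjusted p = 0.000153, edgeR), with 286, 309 and 323 CPM in the sham contralateral libraries. For Scn1a the difference was -0.56 ± 0.11 SE (adjusted p = 0.00154, edgeR), with 107, 114 and 110.0 CPM in the sham contralateral libraries. Cacnb4 gave -0.52 ± 0.10 SE (adjusted p = 0.00255, edgeR), with 305, 372 and 336 CPM in the sham contralateral libraries, and Cacna1a gave -0.46 ± 0.10 SE (adjusted p = 0.0032, edgeR). These 4 held when any 1 library was left out. Limma on log2(TPM + 1) called 3 in place of 9, Scn4b, Scn1a and Cacnb4, all below 0, and 5.35% of all tested genes (1.10% below 0, 4.25% above).

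The other 5 calls depended on single libraries. Scn8a (-0.32, adjusted p 0.018) and Cacna2d3 (-0.37, adjusted p 0.0211) lost their calls without sham ipsilateral animal 6 (adjusted p 0.222 and 0.176) or sham contralateral animal 4 (0.0682 and 0.0806). Cacna1i (-0.35, adjusted p 0.0185) lost it without either sham ipsilateral library or sham contralateral animal 6, at up to 0.0934. Cacna2d1 (-0.33, adjusted p 0.0481) kept its call only without CCI ipsilateral animal 2, sham ipsilateral animal 4 or CCI contralateral animal 3, and was -0.16 without sham ipsilateral animal 6. Scn9a (1.01, adjusted p 0.0441) kept it only without CCI ipsilateral animal 3 or CCI contralateral animals 3 or 5, and with the animal as a block its adjusted p was 0.118. Without sham ipsilateral animal 6, 4 channel genes were called instead of 9, and without sham contralateral animal 4, 5 were. All of these are edgeR adjusted p values.

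Every fit was also run with libraries scaled to the geometric mean of the 10 neuron genes instead of TMM. That scaling moved the median log2 fold change of all genes in CCI against sham ipsilateral hemispheres to 0.29, and made 97.3% of all called genes higher in place of 55.5%. The median of the channel genes was then -0.015. Of all tested genes 47.9% were then called, 1.30% lower and 46.6% higher. Under TMM the 10 neuron genes did not fall alike in this comparison. Their log2 fold changes ran from -0.51 for Nefl to -0.035 for Stmn2, and Stmn2, Tubb3 and Eno2 were not called. Values relative to the list therefore depend on which markers it holds. Relative to this list 4 of the 28 channel genes were still lower: Cacnb4 at -0.26 (edgeR adjusted p 0.00406), Scn1a at -0.22 (0.0259), Cacna1a at -0.20 (0.0293) and Scn4b at -0.19 (0.0268). Higher were 4 of the 28, Cacna1d at 0.37 (0.000758), Cacna2d2 at 0.36 (0.00119), Cacng5 at 0.71 (0.00292) and Scn9a at 0.66 (0.0262). The other 12 genes called under TMM lay between -0.15 and 0.09 and were no longer called. In ipsilateral against contralateral hemispheres of CCI mice this scaling left Cacnb4, Scn1a and Scn4b lower and made 10 of the 28 channel genes higher, where 45.6% of all tested genes were called, 1.18% lower and 44.4% higher. In the interaction it left the same 3 lower and made 4 of the 28 higher, where 24.9% of all tested genes were called, 0.390% lower and 24.6% higher.

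**Figure D4:**
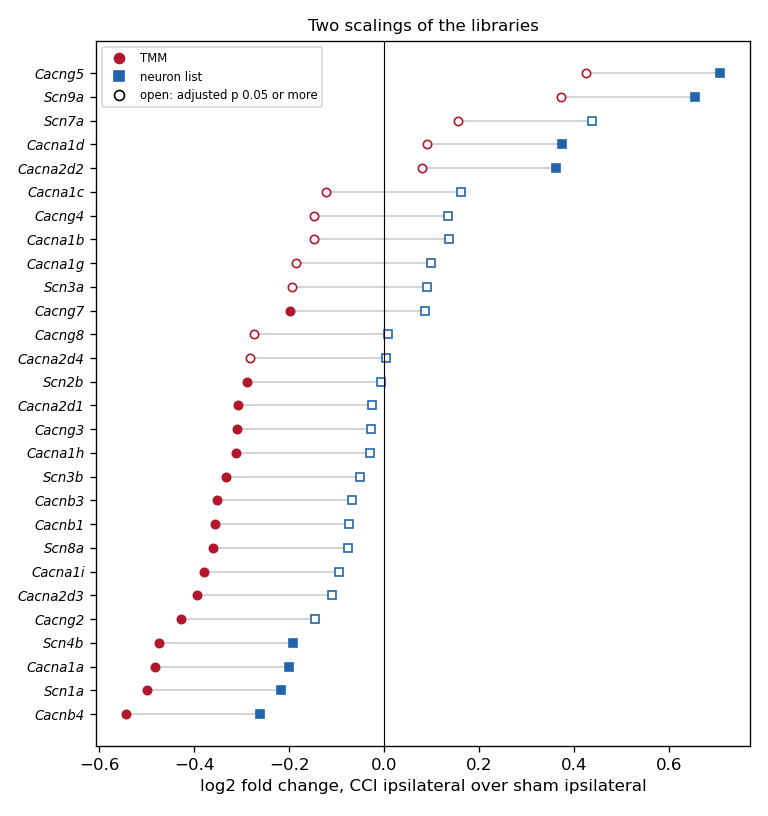
Log2 fold change of the 28 tested channel genes in CCI over sham ipsilateral hemispheres with libraries scaled by TMM (red circles) and to the neuron list (blue squares); filled symbols have an edgeR adjusted p under 0.05. Scaling to the neuron list shifts every gene to the right, leaving Cacnb4, Scn1a, Cacna1a and Scn4b lower, turning Cacng7 and 7 uncalled genes to values above 0, and making Cacna1d, Cacna2d2, Cacng5 and Scn9a higher.

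Marker lists of neuron classes and brain regions were compared in the same way between CCI and sham ipsilateral hemispheres, where 10.0% of all tested genes were lower. The excitatory list had 6 of 7 genes lower (median -0.41), summing to 3249 to 3530 CPM in CCI libraries and 4399 to 4583 CPM in sham libraries. Of the inhibitory list, 2 of 6 tested genes were lower, with sums of 542.6 to 725.9 CPM in CCI libraries and 718.4 to 767.3 CPM in sham libraries. Pvalb, the marker of the fast-spiking cells rich in Nav1.1, had a log2 fold change of -0.28 and was not called (edgeR adjusted p 0.222). In ipsilateral against contralateral hemispheres of CCI mice Pvalb was lower, at -0.64 ± 0.12 SE (adjusted p = 0.00104, edgeR), and 3 of the 6 inhibitory genes were. In CCI against sham ipsilateral hemispheres 3 of 5 thalamus genes, 2 of 6 striatum genes and 2 of 5 hippocampus genes were lower too. Their part in the channel results was not tested. Skeletal and cardiac muscle lists stayed at 5.50 to 6.91 and 0.939 to 2.05 CPM in CCI ipsilateral libraries, against 5.34 to 5.58 and 1.21 to 1.96 CPM in sham ipsilateral libraries.

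Proteins that work with these channels were followed in lists chosen by function. In CCI ipsilateral against sham ipsilateral hemispheres 10.0% of all tested genes were lower and 12.5% higher. The general neuron list had 7 of 10 genes lower (median -0.28), and values of the partners relative to that list are not given here. Of 10 tested sodium channel partners, 5 were lower and 0 higher in this comparison (median -0.20). They were Fgf13 at -0.57 ± 0.07 SE (adjusted p = 6.53e-07, edgeR), Ank3, the ankyrin that anchors sodium channels at the axon initial segment, at -0.34 ± 0.06 SE (adjusted p = 0.00015, edgeR), Fgf14 at -0.46 ± 0.09 SE (adjusted p = 0.000194, edgeR), Fgf12 at -0.29 ± 0.08 SE (adjusted p = 0.00559, edgeR) and the spectrin gene Sptbn4 at -0.25 ± 0.07 SE (adjusted p = 0.00808, edgeR). The Fgf genes encode intracellular fibroblast growth factor homologues that bind the channel's tail and tune its inactivation.

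Calcium channel partners gave 7 lower and 1 higher of 15 tested (median -0.31), where 10.0% and 12.5% of all tested genes were. Rims1, which tethers calcium channels at the active zone, had the smallest p at -0.64 ± 0.07 SE (adjusted p = 1.06e-07, edgeR), and Rims2 gave -0.34. The neuronal calcium sensor gene Cabp1 was lower at -0.64 ± 0.08 SE (adjusted p = 3.23e-07, edgeR). The calmodulin genes Calm2 and Calm3 were lower at -0.33 and -0.31, and the kinase genes Camk2a and Camk2b at -0.41 and -0.31. The 1 higher gene was Rrad, which encodes a small GTPase that restrains calcium channels, at 1.08 ± 0.35 SE (adjusted p = 0.0258, edgeR).

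The next 3 lists are also set against 10.0% of all tested genes lower and 12.5% higher. Of the sodium leak channel complex, 2 of 3 tested genes were lower, Fam155a and Unc80, at -0.42 and -0.24. Among AMPA receptor genes and their cornichon partners, which TARPs act on, 5 of 6 were lower (median -0.32), with Gria3 at -0.38 ± 0.07 SE (adjusted p = 9.61e-05, edgeR) and Cnih2 at -0.43 ± 0.08 SE (adjusted p = 0.000246, edgeR), while Gria1 gave -0.14 and was not called. Intracellular calcium release genes had 0 lower and 1 higher of 5, Itpr2, an inositol trisphosphate receptor, at 0.60 ± 0.10 SE (adjusted p = 7.17e-05, edgeR). In CCI against sham contralateral hemispheres 0 genes of these 5 lists were called, where 0.0941% of all tested genes were.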

How the data were processed

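The authors deposited RSEM expected counts and TPM per gene for 13 libraries, and a table of their own log2 estimates, p-values and fold changes, the last as a signed score (negative reciprocal where lower). Per the submitters' processing notes, reads were converted with bcl2fastq, quantified with RSEM and compared with DESeq2, on GRCm38 (mm10); the annotation and strand setting are not given in these sources. The kit was a stranded mRNA kit, per the labels' protocols.

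Expected counts (9.76% not whole) were rounded. Genes passing filterByExpr (minimum count 10), 14875 of 43411, were fitted in edgeR 4.0.16 (R 4.3.3) with TMM and robust quasi-likelihood in 1 model with 4 group means over all 13 libraries, because sham ipsilateral has 2. P-values are two-sided and were adjusted by Benjamini-Hochberg over all 14875 genes in each of 5 comparisons. SE is the log2 fold change divided by the square root of the F statistic and is approximate. The scripts were tested on simulated data. Alternatives were DESeq2 1.42.0, limma 3.58.1 on log2(TPM + 1) and log2(TPM + 0.1), RLE factors, no filter, scaling to the 10 neuron genes, the 2 compared groups alone, each library left out, and the animal as a block.

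Libraries with the same number come from the same animal, per the labels. Deviations from group means correlated at 0.00348 to 0.0882 over the 6 same-animal pairs and at -0.0966 to 0.0966 over 56 pairs of different animals. CCI and sham mice share no animal, so CCI against sham has no paired form. No 2 libraries of a group agreed within counting noise. The leading numbers of the library names fall in separate ranges for ipsilateral and contralateral samples; what they stand for is not given.

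The genes and lists were chosen with earlier results of these data known. Some genes of the channel families and of the partner lists are not reported here and enter no count of channel genes or of a list; they stayed in the fits over all genes. Values per library were given to genes called in at least 1 comparison, at most 14 by p in CCI against sham ipsilateral hemispheres, and to the 4 uncalled genes with the highest mean TPM. Values of Cacng3, Cacng5 and others beyond these are given as single values, and those of Cacng5 by library were chosen after its values were seen. Promoter windows are RefSeq, GRCm38.p6; gene positions are GENCODE, GRCm38. P-values measure the spread between libraries within groups, with the hemispheres of a mouse taken as independent units except in the block fit. No correction for PCR duplicates was made here.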

Additional observations from a re-analysis of the deposited data

Results flagged for a closer look

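Cacna2d2 and Cacnb1 each had 1 CCI ipsilateral library far from the other 3, and it was animal 2 both times. Cacna2d2 had 85.1 CPM in animal 2 and 77.7 to 78.7 CPM in animals 1, 3 and 5. Cacnb1 had 102 CPM in animal 2 and 89.9 to 91.8 CPM in the other 3. These are 2 of 56 groups of 4 libraries examined, where chance flags about 1 in 20.

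The ipsilateral minus contralateral difference was called different between CCI and sham mice for 9 channel genes, by the edgeR interaction test. It was lower in CCI than in sham mice for Scn4b (-0.60), Scn1a (-0.56), Cacnb4 (-0.52), Cacna1a (-0.46), Cacna2d3 (-0.37), Cacna1i (-0.35), Cacna2d1 (-0.33) and Scn8a (-0.32), and higher for Scn9a (1.01), all on the log2 scale. The Scn9a difference was 0.76 ± 0.19 SE in CCI mice (adjusted p = 0.00435, edgeR) and -0.25 ± 0.25 SE in sham mice (adjusted p = 0.935, edgeR). With the animal as a block the Scn9a interaction was not called (adjusted p 0.118), and the Scn9a and Cacna2d1 interactions each lost the call in 10 of the 13 fits that left out 1 library. Cacna1i lost it in 3, and Scn8a and Cacna2d3 in 2 each.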

How the results depend on the processing

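For 39 calls of single channel genes, 794 values were computed under the alternatives: 664 kept direction and side of the threshold, 122 lost the call in the same direction and 8 turned sign. All 8 turned under scaling to the neuron list: Cacng7 in CCI against sham ipsilateral hemispheres to 0.085, and, in CCI ipsilateral against contralateral hemispheres, Cacna2d1 to 0.04, Cacng3 to 0.012, Scn3b to 0.007, Scn2b to 0.023, Cacna1i to 0.024, Cacnb3 to 0.059 and Scn8a to 0.035. That scaling left 8 channel genes called in CCI against sham ipsilateral hemispheres in place of 16. Limma on log2(TPM + 1) and on log2(TPM + 0.1) each called 5 in CCI ipsilateral against contralateral hemispheres in place of 14, and 3 in the interaction in place of 9. In CCI against sham ipsilateral hemispheres both lost the calls of Cacna2d1, Cacng3, Cacna1h and Cacng7. On log2(TPM + 1) their limma adjusted p values were 0.0595, 0.0763, 0.0896 and 0.133. The cause of these losses was not tested. On log2(TPM + 1), 73.2% of all called genes were higher in CCI against sham ipsilateral hemispheres, against 55.5% in the count fit. With 1 library left out in turn, the calls numbered 12 to 16 in CCI against sham ipsilateral hemispheres, 9 to 15 in CCI ipsilateral against contralateral, and 4 to 11 in the interaction. With the animal as a replicate block the calls numbered 14 in CCI ipsilateral against contralateral hemispheres, 0 in sham mice and 12 in the interaction. Scn9a in the interaction was the 1 call lost. The shares of all tested genes called in the block fit and in the fits without 1 library are not given. Changes in these counts are therefore not read as results about channel genes. Scn3a, Scn7a and Scn9a rest on 20 to 95 counts per library, and 2 sham ipsilateral libraries limit every comparison that uses them.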
